A study of Ceratina calcarata with 12 samples.

Results

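Expression of 9 gene models annotated to starch and to sucrose metabolism was examined in heads of Ceratina calcarata, a small carpenter bee. The 9 genes share 1 list in the study's functional annotation, since its starch list and its sucrose list hold the same gene models. That list contains only genes that the study had called differentially expressed in these same RNA libraries, at an adjusted p of 0.01 by edgeR's exact test. The 9 genes were thus chosen by the adjusted p of the contrast between no care and care, and their differences between the groups are given below as a description. Calls and adjusted p-values printed for them reuse the values that chose them and are no test of these genes. All 9 were found by identifier among the 20693 gene models of the count tables. Of the 10763 gene models with more than 0.18 CPM (counts scaled to a common library size) in more than 3 libraries, which were fitted here, 8 are among these 9 genes, and Ccalc.v2_002656 fell below this minimum.

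No care offspring were reared to adulthood after their mother had been taken from the nest, once she had supplied the brood with pollen. Care offspring were reared with their mother in the nest, where she grooms and guards the brood. Bees of both groups were newly eclosed adult females of matched size from nests in dead sumac stems, opened early in the brood season and kept in the laboratory, and all bees came from different nests. Each group had 3 RNA libraries, and each library was a pool of 3 whole heads, and the variation of single bees was not measured.

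Hexokinases phosphorylate glucose as it enters metabolism, and the glucose-6-phosphate they make can be broken down by glycolysis, sent into the pentose phosphate pathway or stored as glycogen. Animals make no starch. They store glucose as glycogen, a branched polymer with the same kinds of bond, and digest dietary starch and sucrose with amylases and glucosidases, so genes of glycogen and of sugar digestion can carry starch terms. In insects, glycogen is kept mainly in fat body and muscle, and the brain draws on sugars that circulate in the haemolymph. Enzyme activities are annotated for 3 of the 9 genes. For the other 6 only process terms were in hand, and no enzyme is named for them here.

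Library totals were 28882748 to 30811286 counts in no care and 26752341 to 31894020 counts in care, and TMM scaling factors lay between 0.958 and 1.03. The chi-square between counts, per degree of freedom, was 246 to 395 for libraries from different groups and 36.8 to 79.0 for libraries of 1 group, and every library was kept as a replicate. Markers named by their fly ortholog were checked for the tissues a head holds. Summed expression of the 5 neuronal genes was 5080 to 6118 CPM in no care and 4586 to 4599 CPM in care, and that of the 3 muscle genes was 4955 to 6997 CPM in no care and 6380 to 7482 CPM in care, with Argk at 0 in all 6 libraries. None of these genes was called. The neuronal sum is mostly cpx, with 4077 CPM in no care and 2758 CPM in care on average, and its members differed in sign. Vmat averaged 21.5 CPM in no care and 15.8 CPM in care. The gene prt averaged 3.42 CPM in no care and 2.24 CPM in care, with overlapping libraries. Shab had a log2 fold change of 0.03, and only nAChRalpha4 was lower in no care, averaging 1311 CPM against 1667 CPM in care. The glial gene drpr had 331 to 368 CPM in no care and 298 to 366 CPM in care, and the fat body gene Tsf1 had 91.1 to 130.4 CPM in no care and 126 to 172 CPM in care, and neither was called. The genes bol and Dhc93AB were taken as markers of the male germ line, and whether they are confined to it was not examined. Together they had 36.0 to 53.5 CPM in no care and 44.1 to 53.1 CPM in care. Of the 3 eye genes 2 were called, and they are given below beside the starch and sucrose metabolism genes.

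Of the 8 genes fitted, 6 had lower levels in no care and 2 had higher levels, and for each of the 9 genes the 3 no care libraries and the 3 care libraries did not overlap. Separation of this kind, in either direction, was found for 37.6% of all 10763 genes, with all no care libraries lower for 19.2% and higher for 18.4%. At an adjusted p of 0.01 (Benjamini-Hochberg) in the quasi-likelihood test of edgeR, 5 of the 8 were called, against 7.01% of all genes. In the direction lower in no care, 4 were called, against 3.3% of all genes. In the direction higher in no care, 1 was called, against 3.72% of all genes. These counts follow from how the genes were chosen and nothing is read from them. The median log2 fold change (no care over care) was -0.64 over the 8 genes and 0.00 over all genes tested, and the median of its absolute value was 0.85 over the 8 genes and 0.24 over all genes.

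**Figure D1:**
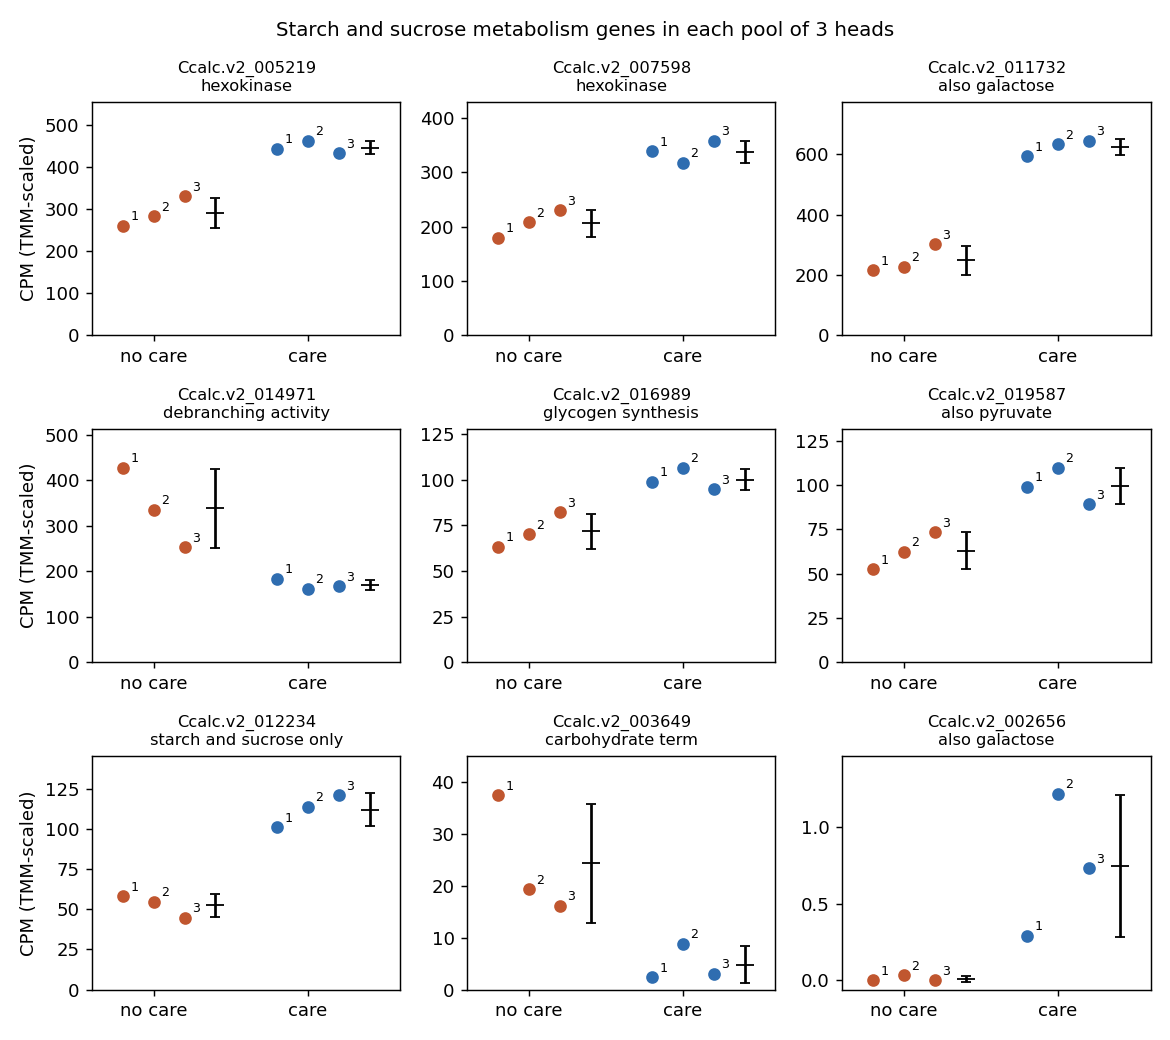
Expression of the 9 starch and sucrose metabolism genes in CPM, scaled by TMM, with 1 panel per gene, 1 point per pool of 3 heads numbered by replicate, and the mean ± SD of the 3 pools of each group as a bar. No panel has overlapping groups, and only Ccalc.v2_014971 and Ccalc.v2_003649 are higher in no care.

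Both hexokinase genes had lower levels in no care, by similar amounts. Ccalc.v2_005219 had 261, 283 and 332 CPM in no care pools 1, 2 and 3, against 445, 463 and 434 CPM in care pools 1, 2 and 3. Its means were 292 ± 36.1 CPM in no care and 447 ± 15.1 CPM in care (SD, n = 3 each), a log2 fold change of -0.61 with a standard error (SE) of 0.11. Ccalc.v2_007598 had 179.6, 208 and 229.6 CPM in no care, against 338, 317 and 358 CPM in care. The highest no care pool was pool 3 for both genes, and it stayed below the lowest care pool. Means of Ccalc.v2_007598 were 206 ± 25.1 CPM in no care and 338 ± 20.2 CPM in care (SD, n = 3 each), a log2 fold change of -0.71 (SE 0.11). Counts of Ccalc.v2_005219 over counts of Ccalc.v2_007598 gave 1.46, 1.36 and 1.45 in no care and 1.31, 1.46 and 1.21 in care. These ratios overlapped between the groups. The counting of reads that match more than 1 gene model is not given in the sources used here, so reads could have been split or lost between the hexokinase models if their sequences are alike.

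The 2 genes of the 9 that are annotated to glycogen synthesis differed between the groups in opposite directions. Ccalc.v2_014971 carries the amylo-alpha-1,6-glucosidase and 4-alpha-glucanotransferase activities of the glycogen debranching enzyme, which moves short chains away from a branch point and then cuts the branch, and it is annotated to both breakdown and synthesis of glycogen. It had 427, 335 and 252 CPM in no care, against 184, 162 and 167 CPM in care. The no care pools were far apart and the care pools close together. Means were 338 ± 87.4 CPM in no care and 171 ± 11.1 CPM in care (SD, n = 3 each), a log2 fold change of 0.98 (SE 0.18). Without no care pool 1 the log2 fold change was 0.78.

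Ccalc.v2_016989, annotated to glycogen synthesis, had 63.3, 70.2 and 82.3 CPM in no care, against 99.0, 106 and 94.8 CPM in care. Every no care pool was below every care pool, with a gap smaller than the range of the no care pools. Its means were 71.9 ± 9.59 CPM in no care and 100.1 ± 5.89 CPM in care (SD, n = 3 each), a log2 fold change of -0.48 (SE 0.11), the smallest in size among the 8 genes. Counts of Ccalc.v2_014971 over counts of Ccalc.v2_016989 gave 6.75, 4.78 and 3.07 in no care, against 1.85, 1.52 and 1.76 in care. The ratio is a count ratio without gene lengths, so it compares libraries and not the levels of the genes with each other. It was higher in every no care pool and varied far more among them than among the care pools. Both genes were listed for their difference in this contrast and differ in opposite directions, so the separation follows from that choice. Their orders of the no care pools were also opposite, which widens the ratio there.

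Ccalc.v2_011732, annotated to starch, sucrose and galactose metabolism, had the lowest fold change of the 8 genes. This gene had 214.9, 227 and 302 CPM in no care, against 593, 633 and 645 CPM in care. The no care pools lay far below the care pools, with pool 3 the highest of each group. Means were 248 ± 47.4 CPM in no care and 624 ± 27.1 CPM in care (SD, n = 3 each), so the care mean was 2.51-fold higher, with a log2 fold change of -1.33 (SE 0.14). Galactose is converted to glucose-1-phosphate before it can enter glycolysis or glycogen, and which step Ccalc.v2_011732 serves is not annotated.

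Ccalc.v2_012234, annotated to starch and sucrose metabolism alone, had 58.2, 54.6 and 44.7 CPM in no care, against 101, 114 and 121 CPM in care. Means were 52.5 ± 6.99 CPM in no care and 112 ± 10.2 CPM in care (SD, n = 3 each), so the care mean was 2.13-fold higher, with a log2 fold change of -1.09 (SE 0.12). Of the 6 fitted genes with lower levels in no care it was the only one whose no care pool 3 lay lowest. Ccalc.v2_019587 is annotated to starch, sucrose and pyruvate metabolism, pyruvate being the end product of glycolysis. It had 52.7, 62.4 and 73.5 CPM in no care, against 99.0, 109.6 and 89.2 CPM in care. Means were 62.9 ± 10.5 CPM in no care and 99.3 ± 10.2 CPM in care (SD, n = 3 each), a log2 fold change of -0.66 (SE 0.14), with a similar spread in each group.

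The remaining genes rested on the fewest counts. Ccalc.v2_003649, annotated to starch, sucrose and general carbohydrate metabolism, had 1094, 570 and 477 counts in no care, against 74, 233 and 101 counts in care. In CPM it had 37.5, 19.4 and 16.2 in no care, against 2.41, 8.89 and 3.08 in care. One pool in each group stood above the others, no care pool 1 and care pool 2. Means were 24.4 ± 11.5 CPM in no care and 4.79 ± 3.56 CPM in care (SD, n = 3 each), a 5.08-fold difference and a log2 fold change of 2.36 (SE 0.52), with the largest SE of the 8 genes. The log2 fold change was 1.91 without no care pool 1 and 3.15 without care pool 2. At 0.01 the quasi-likelihood test called it without care pool 2 and with no filter on low counts, and not with all libraries and the filter.

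Ccalc.v2_002656, annotated to starch, sucrose, galactose and general carbohydrate metabolism, had 0, 1 and 0 counts in no care, against 9, 32 and 24 counts in care. It was nearly undetected in no care and rare in care. The summed counts were 1 in no care and 65 in care, and scaled to library size the care level was 63.8-fold higher, with a 95% exact interval of 11.1 to 2559 that covers counting error only. The gene exceeded 0.18 CPM in 3 libraries, all of care, and the fit required more than 3. A filter of at least 3 libraries kept 11068 genes, the number the study tested, and this gene was among them. Its log2 fold change was then -5.58 (SE 0.97), with an adjusted p of 0.00758 in edgeR's quasi-likelihood test. With no filter it was also -5.58, with an adjusted p of 0.00257 in that test. These fits too reuse the libraries that chose the gene.

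Relative to the threshold of 0.01 in edgeR's quasi-likelihood test, Ccalc.v2_014971 lay just inside, at an adjusted p of 0.00872, and Ccalc.v2_019587 just outside, at 0.0149. Ccalc.v2_016989 and Ccalc.v2_003649 also lay outside. By edgeR's exact test, the test of the study, all 8 genes lay inside, against 13.2% of all genes, and the gene nearest the threshold was Ccalc.v2_016989 at 0.00572. Genes of the term that missed the threshold of the study are not in its list and are not described here. At a threshold of 0.05 the quasi-likelihood test called all 8, against 16.9% of all genes. Nothing is read from the calls in this paragraph, which reuse the contrast and the libraries that chose the genes. When each library was left out in turn, only Ccalc.v2_011732 and Ccalc.v2_012234 were called each time. The hexokinase gene Ccalc.v2_005219 was called only without no care pool 3, with a log2 fold change of -0.72, and its values in the other 5 fits were -0.63 to -0.54. Ccalc.v2_007598 was called without no care pool 3, at -0.80, and without care pool 2, at -0.76, and had -0.72 to -0.62 otherwise. Ccalc.v2_014971 was called only without no care pool 3, at 1.16, with 0.78 to 1.04 in the other 5 fits, and it also lost its call with library size scaling and with upper quartile scaling. Without no care pool 3 the test also called Ccalc.v2_016989, at -0.58, and Ccalc.v2_019587, at -0.79, and it called neither in the other 5 fits.

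**Figure D2:**
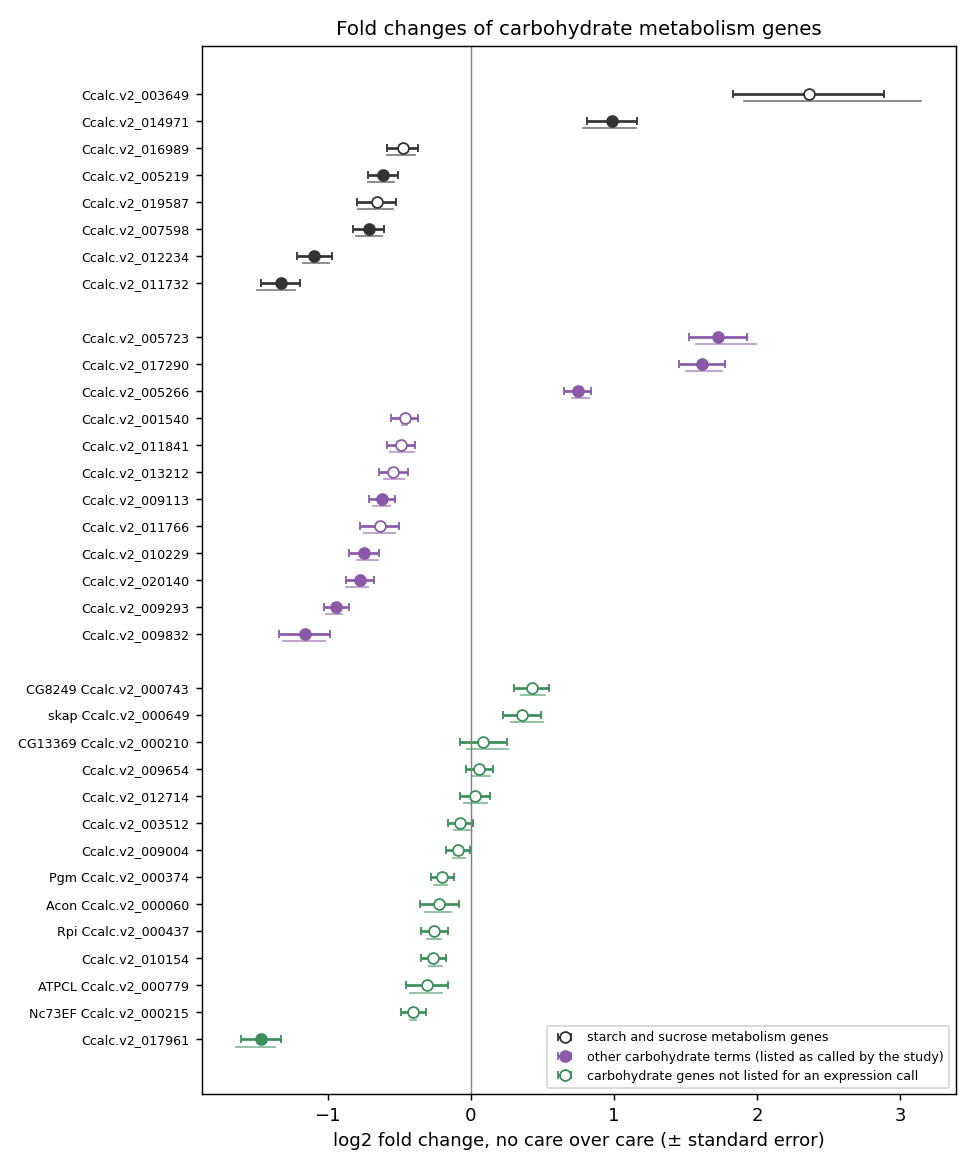
Log2 fold change (no care over care) with its SE for the 8 starch and sucrose metabolism genes fitted, 12 genes of other carbohydrate terms and 14 carbohydrate genes not listed for an expression call. Filled points were called by edgeR's quasi-likelihood test, and the thin line under each point spans the values of the 6 fits that leave out 1 library. The genes of the first and second groups were listed by the study for their calls in these libraries, and of the 14 genes of the third group only Ccalc.v2_017961 is filled.

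The genes also differed among the pools within each group. Among no care pools, the 5 genes Ccalc.v2_005219, Ccalc.v2_007598, Ccalc.v2_011732, Ccalc.v2_016989 and Ccalc.v2_019587 were lowest in pool 1 and highest in pool 3, as were 21.6% of all genes. Ccalc.v2_003649, Ccalc.v2_012234 and Ccalc.v2_014971 were lowest in pool 3 and highest in pool 1, as were 20.4% of all genes. No care pool 2 thus lay between the other pools for all 8 genes, against 42% of all genes. No care pool 3 was the no care pool nearest to the care mean for 7 of the 8 genes, Ccalc.v2_012234 being the exception. The share of all genes with this position was not computed, so it is not shown to be particular to these genes. Without no care pool 3 the calls over all genes rose from 755 to 1109. Among care pools no order was shared by more than 3 of the 8 genes.

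The coefficient of variation (SD over mean) was larger in no care for 7 of the 8 genes and for 67.3% of all genes. Its median over the 8 genes was 15.0% in no care and 6.24% in care, and over all genes it was 13.0% in no care and 8.78% in care. Ccalc.v2_003649 was the exception, with 47.2% in no care and 74.3% in care. Ccalc.v2_014971 had 25.8% in no care and 6.49% in care, the largest value in no care after Ccalc.v2_003649. Ccalc.v2_011732 had 19.1% in no care and 4.35% in care.

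Deviations of each library from its group mean, on the log2 scale, were correlated between genes over the 6 libraries, as a description. Among Ccalc.v2_005219, Ccalc.v2_007598, Ccalc.v2_011732, Ccalc.v2_016989 and Ccalc.v2_019587 all 10 pairs had positive coefficients, between 0.53 and 0.99 with a median of 0.82. The pair of hexokinase genes had 0.71, and Ccalc.v2_016989 had 0.99 with the hexokinase gene Ccalc.v2_005219 and 0.98 with the pyruvate gene Ccalc.v2_019587. The debranching gene Ccalc.v2_014971 ran against these genes, with -0.95 against Ccalc.v2_005219 and -0.92 against Ccalc.v2_016989. Ccalc.v2_012234 also ran against them, with coefficients from -0.83 to -0.61, and it ran with Ccalc.v2_014971, at 0.67. The 5 genes with positive pairs are those lowest in no care pool 1 and highest in pool 3, so their coefficients follow in part from that grouping. Over all 28 pairs of the 8 genes the median was -0.13, with 13 positive. Over the 15 pairs of the 6 genes lower in no care it was 0.71, with 10 positive. Coefficients between pairs of all genes were not computed. The 6 libraries share their group means and their scaling, so these coefficients rest on few independent values.

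Genes of the eye had lower levels in no care, as had 6 of the 8 starch and sucrose metabolism genes. Rh6, a visual pigment of photoreceptors in the fly, had 539, 833 and 878 CPM in no care, against 2832, 1881 and 2810 CPM in care, a log2 fold change of -1.74 (SE 0.23). Arr1, an arrestin that ends the signal of the visual pigments, had 53.0, 67.1 and 64.0 CPM in no care, against 182, 159 and 194 CPM in care, a log2 fold change of -1.54 (SE 0.12). Both were called by edgeR's quasi-likelihood test, with adjusted p-values of 0.00282 for Rh6 and 0.000409 for Arr1, and with a library left out in turn Rh6 was called in 3 of 6 fits and Arr1 in 6 of 6. Rh3, another visual pigment, averaged 1003 ± 65.4 CPM in no care and 1359.9 ± 30.8 CPM in care (SD, n = 3 each) and was not called, with a log2 fold change of -0.44. Of the 3 eye genes, 2 were called, none was at 0, and their summed level was 1526 to 2005 CPM in no care and 3368 to 4404 CPM in care.

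Summed expression of the 6 starch and sucrose metabolism genes with lower levels in no care was 830.1, 906 and 1065 CPM in no care, against 1675, 1744 and 1741 CPM in care. In no care the eye sum and this sum were both lowest in pool 1 and highest in pool 3. Of all genes, 21.6% had this order. Within the sums, Arr1 was highest in pool 2, and Ccalc.v2_012234 was lowest in pool 3. The 6 genes were grouped by their direction in these libraries, so the group difference of their sum follows from that choice. Summed over all 9 genes, levels were 1295, 1261 and 1333 CPM in no care, lowest in pool 2. The care pools had 1861, 1916 and 1912 CPM for the 9 genes. In care the eye sum was lowest in pool 2 and the sum of the 6 genes in pool 1. The part of the eye genes in these results was not tested. In pooled heads, fewer cells of a type and less RNA per cell cannot be told apart.

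**Figure D3:**
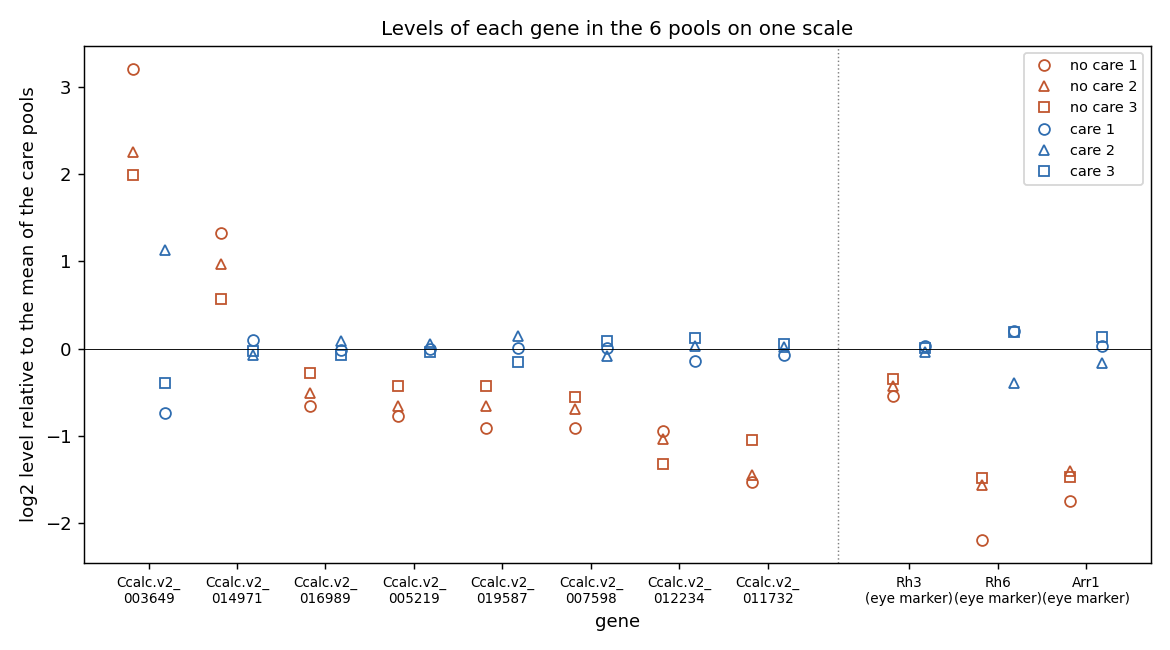
Log2 level of the 8 starch and sucrose metabolism genes fitted and of 3 eye markers in each pool, relative to the mean of the 3 care pools of that gene, with marker shapes for pools 1, 2 and 3. No care pool 3 (square) lies nearest to 0 for every starch and sucrose metabolism gene shown except Ccalc.v2_012234, and Rh6 and Arr1 lie between -2.19 and -1.40 in no care.

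The genes with the most similar pattern over the 6 libraries were sought for the genes with the lowest and the highest fold change. Ccalc.v2_011732 was most like Ccalc.v2_017961, with a Pearson coefficient of 0.9998 for log2 CPM over 6 libraries and 0.999 for deviations within groups. Ccalc.v2_017961 is annotated with glucose-6-phosphate dehydrogenase activity, which oxidizes the product of hexokinase at the entry of the pentose phosphate pathway. Next was Ccalc.v2_011336, at 0.998 and, within groups, 0.981, with a much smaller log2 fold change of -0.25. Coefficients over 0.95 with Ccalc.v2_011732 were found for 416 genes. The 6 libraries fall in 2 groups, so such coefficients hold the difference between the groups as well as the variation within them. Ccalc.v2_003649 was most like Ccalc.v2_002065, at 0.997 and, within groups, 0.986, with a log2 fold change of 2.05. Next was Ccalc.v2_003464, at 0.996 and, within groups, 0.993, with a log2 fold change of 0.73. Like Ccalc.v2_003649, both had their highest no care value in pool 1 and their highest care value in pool 2.

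Ccalc.v2_017961 was also among 14 genes of carbon metabolism that were not taken from lists of expression calls but by their fly ortholog or from lists for splicing, exon usage and methylation. It had 101, 106 and 143 CPM in no care, against 308, 329.9 and 332 CPM in care. Every no care pool was below every care pool, and as in Ccalc.v2_011732 pool 3 was the highest in each group. Means were 117 ± 23.1 CPM in no care and 323 ± 13.3 CPM in care (SD, n = 3 each), a log2 fold change of -1.47 (SE 0.14) with an adjusted p of 0.000927 by edgeR's quasi-likelihood test, and it was called with each library left out in turn. Its listing by the study rests on exon usage in the same libraries, and the 14 genes were put together with earlier results of these data known, so they are not independent of these libraries.

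**Figure D4:**
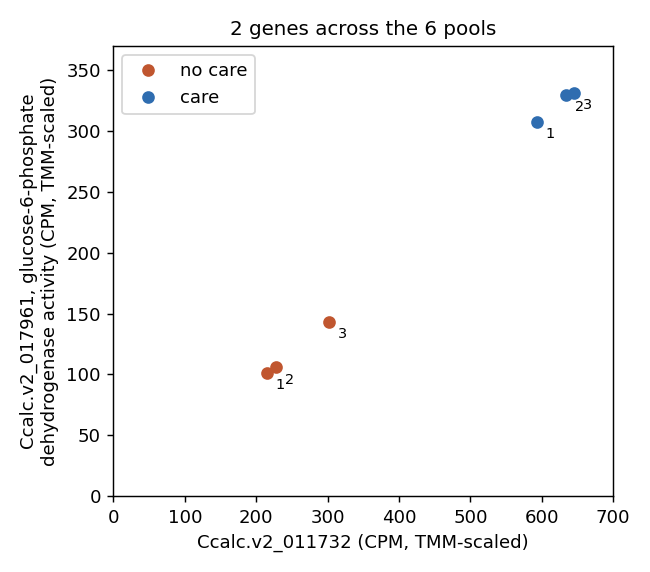
CPM, scaled by TMM, of Ccalc.v2_017961 (glucose-6-phosphate dehydrogenase activity) against CPM of Ccalc.v2_011732 (starch, sucrose and galactose terms), 1 point per pool numbered by replicate. The no care pools lie at 214.9 to 302 CPM of Ccalc.v2_011732 and 101 to 143 CPM of Ccalc.v2_017961, and the care pools at 593 to 645 CPM and 308 to 332 CPM.

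Of the 14 genes, Ccalc.v2_017961 was the only one called, a share of 7.14% beside 7.01% of all genes, and 7 of the 14 did not overlap between groups, beside 37.6% of all genes. The median log2 fold change of the 14 was -0.15. Pgm (Ccalc.v2_000374), whose fly ortholog interconverts glucose-1-phosphate and glucose-6-phosphate between glycogen and glycolysis, averaged 184 ± 12.7 CPM in no care and 211 ± 7.48 CPM in care (SD, n = 3 each). Its log2 fold change was -0.20 (SE 0.08), not called, with an adjusted p of 0.134 by edgeR's quasi-likelihood test. The other genes with the largest fold changes were CG8249 (Ccalc.v2_000743), a sugar transporter, at 0.43 (SE 0.12), and Nc73EF (Ccalc.v2_000215), a subunit of 2-oxoglutarate dehydrogenase in the citric acid cycle, at -0.40 (SE 0.09). Their adjusted p-values of 0.0509 for CG8249 and 0.0199 for Nc73EF in edgeR missed the threshold. The 3 genes of the pyruvate dehydrogenase complex, which feeds pyruvate into that cycle, had log2 fold changes of -0.08, 0.06 and 0.03.

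A further 12 genes carry terms for glycogen, galactose, pyruvate or gluconate metabolism, or 6-phosphofructo-2-kinase activity, and were listed by the study because it had called them in these libraries, so they too are only described. Of these 12, 8 were called here, beside 7.01% of all genes, with 3 higher in no care (3.72% of all genes) and 5 lower (3.3% of all genes), and the median log2 fold change was -0.58. None of the 12 overlapped between the groups, beside 37.6% of all genes without overlap. These counts too follow from the choice of the genes. With a library left out in turn, the number called was 2 (without care pool 3) to 11 (without no care pool 3), and Ccalc.v2_017290 and Ccalc.v2_009293 were called each time. Of the glycogen genes, Ccalc.v2_010229, annotated to glycogen breakdown, had a log2 fold change of -0.75 (SE 0.11), opposite in sign to the debranching gene Ccalc.v2_014971. Ccalc.v2_011766, annotated to glycogen synthesis, had -0.64 (SE 0.14), of the same sign as Ccalc.v2_016989, and was not called. The 6-phosphofructo-2-kinase gene Ccalc.v2_011841 had a log2 fold change of -0.49 (SE 0.10) and was not called. Its adjusted p was 0.0142 in edgeR's quasi-likelihood test and 0.00184 in edgeR's exact test.

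The galactose gene Ccalc.v2_017290 had 52.0, 44.6 and 38.7 CPM in no care, against 12.4, 17.6 and 14.3 CPM in care, a log2 fold change of 1.61 (SE 0.16). Its sign was opposite to that of the galactose genes Ccalc.v2_011732 and Ccalc.v2_002656. The 3 genes with phosphogluconate dehydrogenase activity, which acts after glucose-6-phosphate dehydrogenase in the pentose phosphate pathway, were all called, Ccalc.v2_005723 at 1.73 (SE 0.20), Ccalc.v2_009293 at -0.94 (SE 0.09) and Ccalc.v2_020140 at -0.77 (SE 0.10). Of the pyruvate genes, Ccalc.v2_009832 had -1.16 (SE 0.18), Ccalc.v2_009113 had -0.62 (SE 0.09) and Ccalc.v2_005266 had 0.75 (SE 0.09), and these were called, whereas Ccalc.v2_013212 at -0.54 (SE 0.10) and Ccalc.v2_001540 at -0.46 (SE 0.09) were not. Ccalc.v2_019587, the pyruvate gene of the starch and sucrose list, had the sign of all of these but Ccalc.v2_005266.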

How the data were processed

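RNA was measured in 3 no care and 3 care pools of 3 heads. The authors cleaned reads with Trimmomatic 0.32, mapped them to the C. calcarata assembly with TopHat and made the deposited counts per gene model with featureCounts, without normalization. Counting of multiply mapped reads and of strand is not given in the sources used here. Genes over 0.18 CPM in more than 3 libraries (10763 of 20693) entered a quasi-likelihood test in edgeR 4.0.16 (R 4.3.3) after TMM scaling, adjusted over all of them by Benjamini-Hochberg, with calls at 0.01. CPM uses the library total times the TMM factor, and correlations use log2 CPM with a prior count of 1. The exact test, DESeq2 1.42.0, other scalings, filters and threshold, a replicate block and fits without each library served as alternatives. With counts simulated for 10763 genes, 200 of them changed by 1.5 on the log2 scale, the test recovered 200 with 1 false call. The simulation gave all genes the same dispersion and changed only genes above a count minimum. It therefore does not measure the sensitivity of the test to smaller changes or to genes with more spread.

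All 9 starch and sucrose metabolism genes are named. Of the other carbohydrate genes, those called, those with the 3 largest changes and Pgm are named, and for the extreme fold changes the 2 most correlated genes. Genes of the pyruvate dehydrogenase complex, Ccalc.v2_011766, Ccalc.v2_013212, Ccalc.v2_001540 and Ccalc.v2_011841 were added after their values were seen. Members and lists were chosen with earlier results of these data known. Annotations come from the study. Methylation, gene positions and sequences were not analysed here. Python 3.11.15 with pandas 2.3.3, numpy 2.4.6, scipy 1.17.1 and matplotlib 3.10.9 was used for summaries and figures.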

Additional observations from a re-analysis of the deposited data

How the results depend on the processing

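No starch and sucrose metabolism gene changed direction under any alternative run. Their calls in 120 single-gene comparisons stood as reported in 85, were gained in 16 and lost in 19. The 4 genes called lower in no care numbered 6 with the exact test, DESeq2, library size only, no filter and a threshold of 0.05. They numbered 5 with the filter in at least 3 libraries, 2 with the replicate block and 2 to 6 with a library left out. The runs with a changed filter also fitted Ccalc.v2_002656. The 1 gene called higher in no care, Ccalc.v2_014971, was joined by Ccalc.v2_003649, making 2, with the exact test, DESeq2, no filter and a threshold of 0.05. The number was 0 with library size only, upper quartile scaling and the replicate block, and 0 to 1 with a library left out. Without care pool 2 the 1 gene called was Ccalc.v2_003649, and Ccalc.v2_014971 was not called. Over all genes, the 755 calls became 1420 with the exact test, 1630 with DESeq2, 1818 at 0.05, 371 with the replicate block and 172 (without care pool 3) to 1109 (without no care pool 3). Other carbohydrate terms had 8 calls, 5 with the replicate block and 2 to 11 with a library left out. The 14 genes not listed for an expression call had 1 call, and 2 with DESeq2 and at 0.05. Of these 14, 2 changed sign, both near 0: with a library left out, Ccalc.v2_000210 ranged from -0.031 to 0.26 and Ccalc.v2_012714 from -0.046 to 0.11, and Ccalc.v2_012714 had -0.0048 with library size only. The cause was not tested. The replicate numbers did not pair the samples, since same-numbered libraries had deviations correlated at 0.01, -0.04 and 0.10. With 3 pools per group, calls near the threshold changed when a single library was left out. Such fits also hold fewer libraries, and the part of each was not tested.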
